A study of Mus musculus with 6 samples.

Results

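The 39 genes described here encode proteins of the skeletal muscle fibre or the transcription factors that make one, and they were measured by bulk RNA-seq in mouse dental epithelial cells. They were found in the count table by their symbols, as 39 of 24959 genes with at least 1 read, and they were listed after a high muscle signal in 1 library was known. The levels in that library and the comparison of the groups therefore chose the members, so the values below are a description and no member is given a test of its own. The list has no numerical threshold, so no gene lies just inside or outside it.

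The study compared Pkm cKO cells, labelled as carrying a PKM knockout, with control cells labelled WT, both from postnatal day 0 mouse teeth. Each group had 3 libraries, numbered 1 to 3 as biological replicates, made from 200 ng of total RNA. Pkm encodes the pyruvate kinase of the last step of glycolysis. The promoter that drives the deletion, the deleted exons, the strain, the sex and whether animals were pooled were not stated in the labels, nor was the way in which the epithelium was separated from the rest of the tooth and jaw. Counts were scaled to CPM, the reads of a gene per 1e6 counted reads, on library sizes adjusted by the trimmed mean of M-values (TMM).

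Skeletal muscle contracts when myosin motors of the thick filament pull on thin filaments of actin, and the troponin complex on the thin filament opens the myosin sites when calcium is released. Most of these proteins come in isoforms from separate genes. In rodent muscle the embryonic myosin Myh3 and the perinatal myosin Myh8 come before the adult fast myosins Myh4, Myh1 and Myh2, while Myh7 encodes the slow myosin that the heart also uses. Cells become muscle under Pax3 and Pax7, which mark the progenitors, and under the MyoD family, Myod1, Myf5, Myog and Myf6, which bind E-box sequences in muscle promoters together with MEF2 proteins. In the head, the jaw muscles lie close to the developing teeth.

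The libraries held 30588350 to 39085792 counted reads in Pkm cKO and 38130829 to 39415700 in control. Pkm itself was at 309, 395 and 350 CPM in Pkm cKO replicates 1, 2 and 3, against 1280, 1184 and 1048 CPM in control replicates 1, 2 and 3, so every library went with its label. The labelled cell type was checked against 7 markers of dental epithelium, none of which was absent. Their summed level was 13530, 9759 and 8198 CPM in the Pkm cKO libraries and 36840, 30860 and 21510 CPM in the controls, a sum that the enamel protein gene Amelx moves most. Its level was 4133, 343 and 122 CPM in Pkm cKO and 18600, 15590 and 8557 CPM in control. The basal keratin Krt5 was at 4684, 5737 and 5215 CPM in Pkm cKO and 7547, 6354 and 7139 CPM in control.

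The 6 myosin heavy chain genes of the list are similar in sequence, which bears on how reads are divided among them. In the GENCODE M21 coding sequences on GRCm38, Myh3 and Myh8 were identical at 81.1% of aligned bases, with a longest shared run of 77 bases. Myh8 and Myh4 were identical at 88.1%, with a shared run of 164 bases, and Myh1 and Myh2 at 91.1%, with a shared run of 268 bases. The following 60-base stretches near the 3' end of the coding strand show where the genes can be told apart, with bases that differ from Myh8 in capitals.
Myh3: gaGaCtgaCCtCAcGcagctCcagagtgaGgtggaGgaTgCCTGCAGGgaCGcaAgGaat
Myh8: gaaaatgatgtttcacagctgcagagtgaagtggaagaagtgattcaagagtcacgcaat
Myh4: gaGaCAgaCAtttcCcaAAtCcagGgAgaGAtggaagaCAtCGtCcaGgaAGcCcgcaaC
Myh1: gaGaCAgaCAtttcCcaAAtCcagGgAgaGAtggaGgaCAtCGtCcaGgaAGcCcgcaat
Myh2: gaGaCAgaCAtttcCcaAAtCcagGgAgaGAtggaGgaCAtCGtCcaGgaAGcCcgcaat
Myh7: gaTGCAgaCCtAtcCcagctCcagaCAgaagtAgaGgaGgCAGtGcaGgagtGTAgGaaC
Myh3, Myh4, Myh1 and Myh2 each differed from Myh8 at 23 of the 60 positions and Myh7 at 24, whereas Myh1 and Myh2 were the same letter for letter here. A read that falls in such a stretch separates Myh3, Myh8 and Myh7 from each other, and cannot separate Myh1 from Myh2. How the authors treated reads that fit more than 1 gene was not stated, so low counts of Myh1, Myh2 and Myh4 beside abundant relatives are uncertain.

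Promoters from 250 bases before to 50 bases after the start are shown for 4 members whose levels differed most in pattern. Acta1 and Myh8 were high in all Pkm cKO libraries relative to control, Chrng was present almost only in Pkm cKO replicate 3, and Myh4 was the member not raised there. The sequences are from RefSeq, build GRCm38.p6, on the strand of the gene, and capitals mark the E-box CAGCTG, a MEF2 box or a CArG box, the site of serum response factor.
Acta1, chr8:123894726-123895025, strand -: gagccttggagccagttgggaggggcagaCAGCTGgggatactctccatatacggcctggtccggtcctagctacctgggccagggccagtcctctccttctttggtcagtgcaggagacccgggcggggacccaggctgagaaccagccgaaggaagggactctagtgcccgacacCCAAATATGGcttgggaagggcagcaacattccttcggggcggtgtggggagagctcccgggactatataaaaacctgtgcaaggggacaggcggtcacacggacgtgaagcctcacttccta
Myh8, chr11:67276874-67277173, strand +: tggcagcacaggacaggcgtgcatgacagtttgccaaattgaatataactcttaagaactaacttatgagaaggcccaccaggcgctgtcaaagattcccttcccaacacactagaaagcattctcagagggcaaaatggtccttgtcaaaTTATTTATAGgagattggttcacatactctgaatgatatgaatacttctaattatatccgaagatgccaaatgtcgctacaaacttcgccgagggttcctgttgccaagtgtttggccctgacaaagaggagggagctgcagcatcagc
Chrng, chr1:87205561-87205860, strand +: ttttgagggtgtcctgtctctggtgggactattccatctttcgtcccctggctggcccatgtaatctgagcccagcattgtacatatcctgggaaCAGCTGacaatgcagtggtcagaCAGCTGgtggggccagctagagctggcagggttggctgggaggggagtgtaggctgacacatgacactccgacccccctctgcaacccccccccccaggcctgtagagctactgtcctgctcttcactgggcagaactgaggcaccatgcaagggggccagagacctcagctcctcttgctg
Myh4, chr11:67237562-67237861, strand +: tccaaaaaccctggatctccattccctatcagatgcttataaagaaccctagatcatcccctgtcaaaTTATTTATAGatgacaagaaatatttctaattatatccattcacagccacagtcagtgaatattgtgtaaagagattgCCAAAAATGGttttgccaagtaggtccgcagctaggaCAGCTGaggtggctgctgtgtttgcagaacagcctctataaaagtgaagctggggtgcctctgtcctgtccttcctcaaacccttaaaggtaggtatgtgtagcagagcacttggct
RefSeq promoters were matched for 32 of the 39 members, giving 37 promoters. The E-box CAGCTG, which is its own reverse complement, stood in 17 of these 37, or 45.9%, against 16.3% of all 32851 promoters. A MEF2 box was found in 10.8% of the member promoters and 3.19% of all promoters, and a CArG box in 8.11% and 1.63%, on either strand and with each motif counted apart. The Acta1 window held 1 E-box and 1 CArG box, the Chrng window 2 E-boxes, the Myh4 window 1 of each motif and the Myh8 window a MEF2 box. These matches are letters in a window and not measured binding sites.

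The members were abundant in 1 library, Pkm cKO replicate 3. Their counts summed to 139, 62.9 and 4991 CPM in Pkm cKO replicates 1, 2 and 3, against 33.3, 31.5 and 33.6 CPM in control replicates 1, 2 and 3. Pkm cKO replicate 3 stood far above the rest, replicates 1 and 2 lay above all controls, and the 3 controls were within 3 CPM of each other. In reads, this was 4301, 2164 and 201150 in Pkm cKO and 1222, 1216 and 1295 in control. As a share of all counts it was 0.0141%, 0.00642% and 0.515% in Pkm cKO, and 0.00321%, 0.00313% and 0.00329% in control. In bulk RNA, fewer cells of a type and less RNA per cell cannot be told apart. Relative to the control mean the summed level was 4.24, 1.92 and 152 times in Pkm cKO replicates 1, 2 and 3. The median over members of the ratio, taken on CPM plus a pseudocount of 0.5, was 1.41, 1.30 and 30.5. The pseudocount pulls the ratio towards 1 for members with control levels far below 0.5 CPM. Myh8, for 1, was at 0.0263 CPM in the pooled controls and at 27210 times them in replicate 3 without a pseudocount. This median is therefore not the typical plain ratio, while the sum is weighted towards abundant members.

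**Figure D1:**
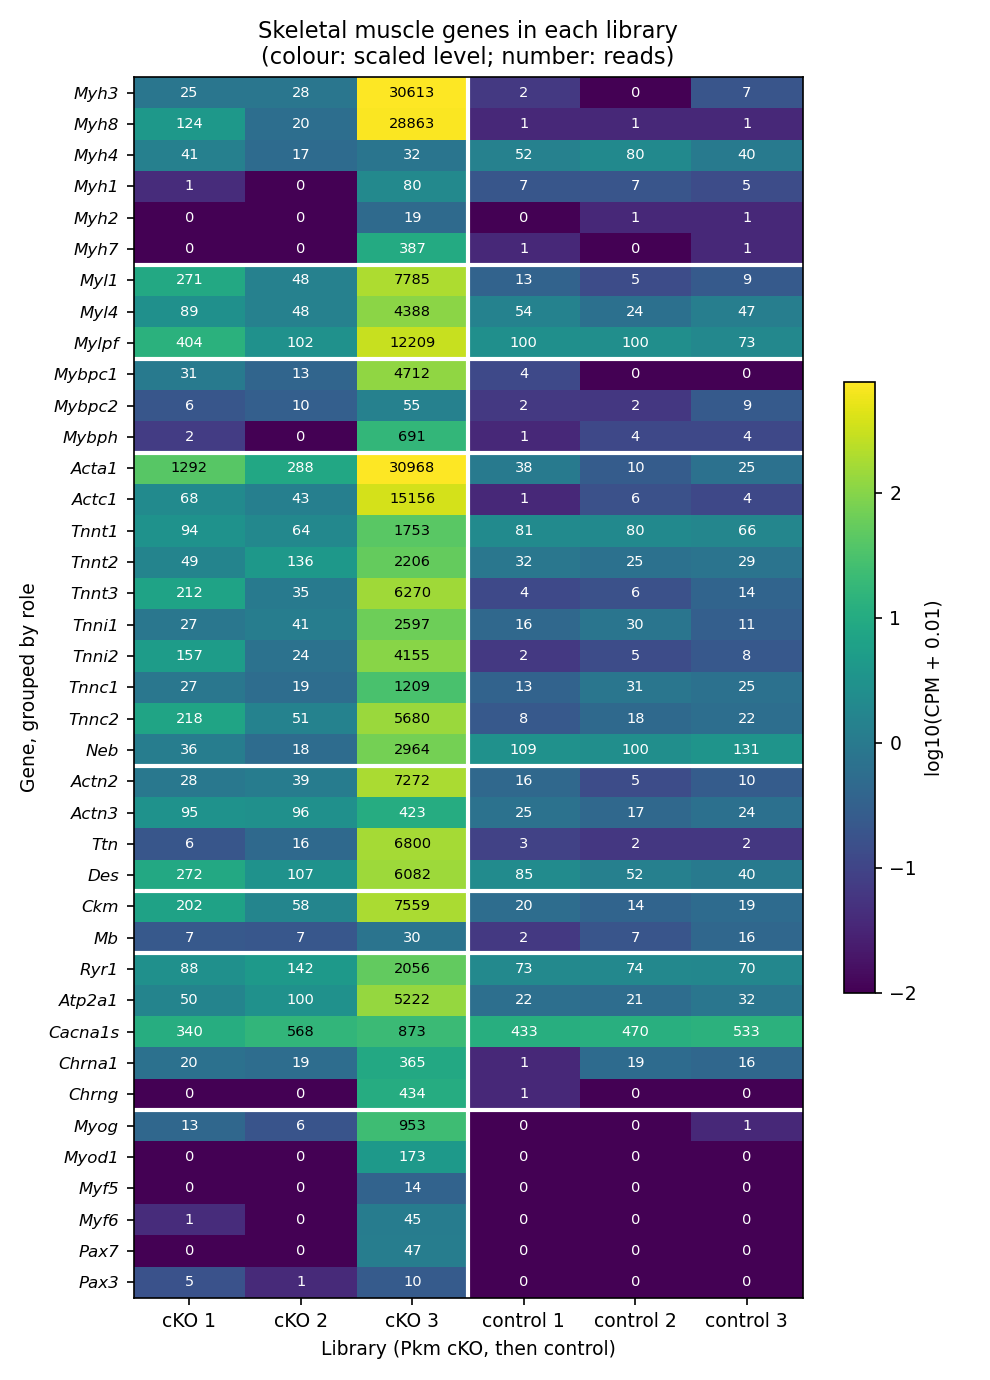
Level of each of the 39 genes in each library, coloured by log10 of CPM plus 0.01, with the read count printed in each cell and white lines between roles. The column of cKO 3 is bright for nearly all genes, cKO 1 and cKO 2 lie above the controls for Acta1, Actc1, the fast troponins, Myl1 and Ckm, and Myh4, Cacna1s and Neb do not follow that order.

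Above the highest control were 26 of the 39 members in Pkm cKO replicate 1, or 66.7%, where 28.3% of all 24959 genes were. In Pkm cKO replicate 2 this held for 24 members, or 61.5%, where 32.0% of all genes were above. In Pkm cKO replicate 3 it held for 38, or 97.4%, where 34.2% of all genes were above, the exception being Myh4. A level over 2 times the highest control was reached by 18, 18 and 36 members in replicates 1, 2 and 3, against 7.88%, 7.36% and 13.4% of all genes. Pkm cKO replicates 1 and 2 were both above the highest control for 22 members, where 14.2% of all genes were. Since the list was made with these libraries known, nothing further is read from these shares.

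With counting error alone, the exact 95% interval of the ratio to the pooled controls lay above 1 for 23 members in Pkm cKO replicate 1, 20 in replicate 2 and 38 in replicate 3. Over all 24959 genes the same held for 22.8%, 26.0% and 30.2%. These intervals treat reads as independent molecules, which holds no account of differences between animals or preparations. No second library repeats replicate 3, so its level has no replicate of its own.

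**Figure D2:**
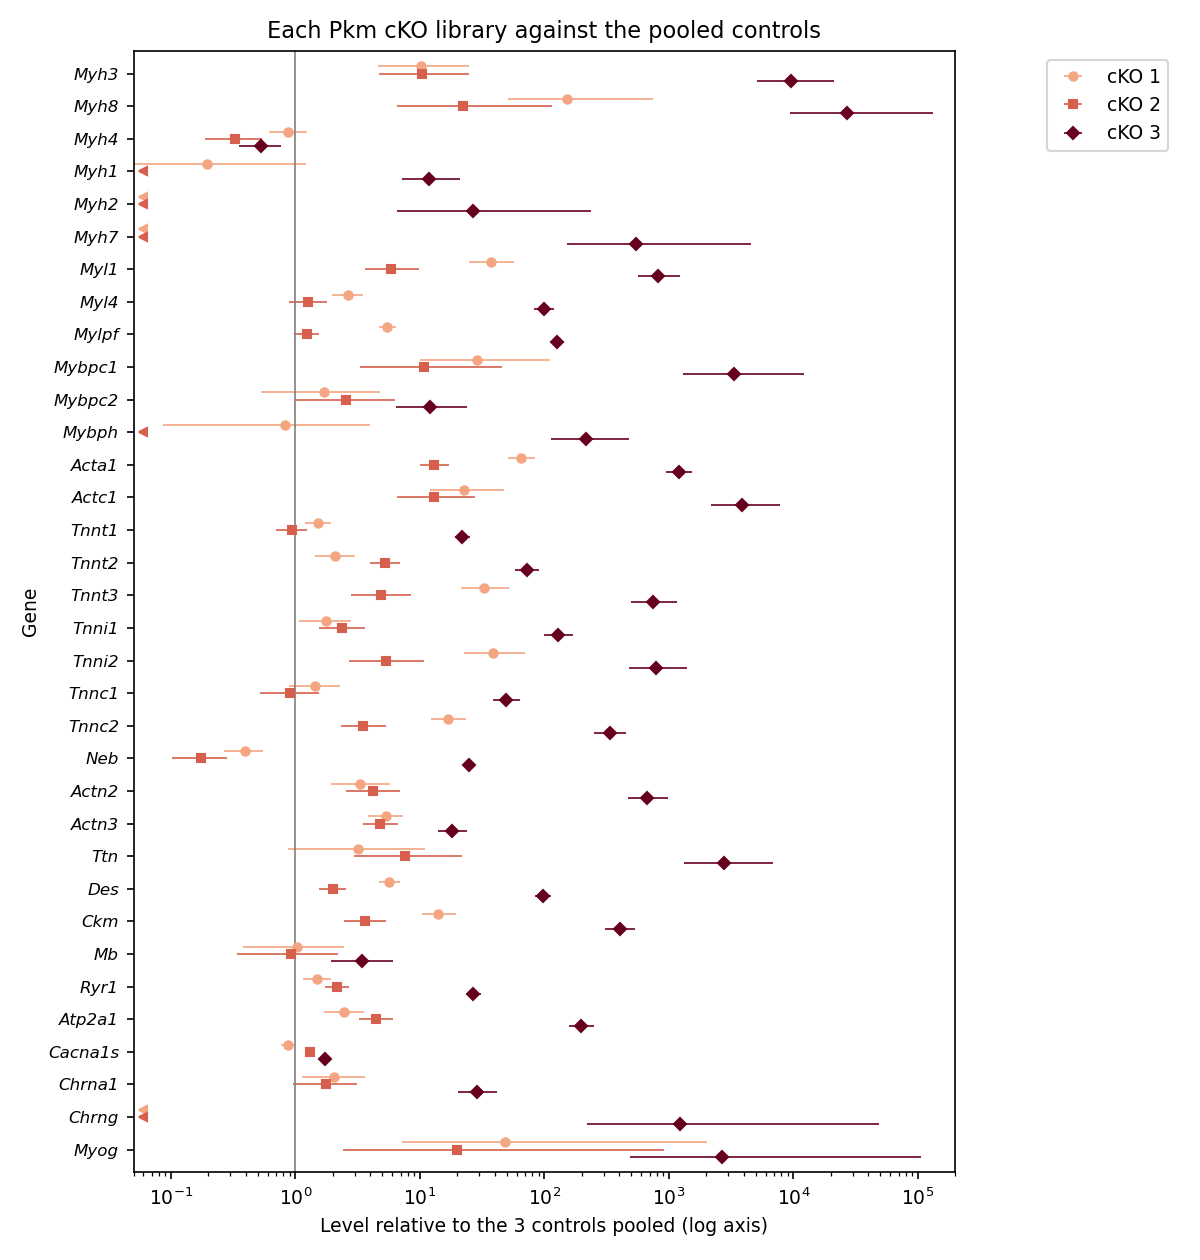
Level of each gene in each Pkm cKO library relative to the 3 controls pooled, on a log axis with exact 95% counting intervals. Left-pointing triangles mark genes with 0 reads in that library. The 5 members with no read in any control (Myod1, Myf5, Myf6, Pax7 and Pax3) have no ratio and are left out. Ratios in cKO 3 range from 0.526 for Myh4 to 27210 for Myh8, while cKO 1 and cKO 2 lie on both sides of 1.

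The developmental myosins made up nearly all myosin heavy chain reads in Pkm cKO replicate 3 and most of them in the other Pkm cKO libraries. The embryonic Myh3 was at 0.807, 0.813 and 760 CPM in Pkm cKO replicates 1, 2 and 3, against 0.0544, 0 and 0.182 CPM in the controls. The perinatal Myh8 was at 4.00, 0.581 and 716 CPM in Pkm cKO, against 0.0272, 0.0259 and 0.0259 CPM in control, where each library held 1 read. Neither gene's groups overlapped. For Myh3, replicates 1 and 2 were alike, at 10.2 times (4.61 to 24.9) and 10.3 times (4.72 to 24.8) the pooled controls. For Myh8 they were not, at 152 times (50.8 to 747) in replicate 1 and 22.1 times (6.55 to 116) in replicate 2. Pkm cKO replicate 3 was at 9619 times (5067 to 21040) for Myh3 and 27210 times (9309 to 131900) for Myh8, ratios that rest on 9 and 3 control reads.

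Myh4, an adult fast myosin, did not follow the developmental myosins. It was at 1.32, 0.494 and 0.794 CPM in Pkm cKO and 1.42, 2.07 and 1.04 CPM in control, so replicate 1 lay within the controls and replicates 2 and 3 below them. The ratio was 0.877 (0.608 to 1.24) in replicate 1, 0.327 (0.186 to 0.539) in replicate 2 and 0.526 (0.349 to 0.771) in replicate 3. The other adult fast genes were nearly silent: Myh1 had 1, 0 and 80 reads in Pkm cKO and 7, 7 and 5 in control, and Myh2 had 0, 0 and 19 in Pkm cKO and 0, 1 and 1 in control. The slow myosin Myh7 had 0, 0 and 387 reads in Pkm cKO and 1, 0 and 1 in control. Only Pkm cKO replicate 3 was above the controls for these 3 genes.

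As a share of the 6 myosins' reads, which does not depend on scaling between libraries, Myh3 and Myh8 together made up 78.0% in Pkm cKO replicate 1 (exact 95% interval 71.5 to 83.7, 149 of 191 reads). In replicate 2 the share was 73.8% (61.5 to 84.0, 48 of 65 reads) and in replicate 3 it was 99.1% (99.1 to 99.2, 59476 of 59994 reads). In control replicate 1 it was 4.76% (0.993 to 13.3, 3 of 63 reads), in control replicate 2 it was 1.12% (0.0284 to 6.10, 1 of 89 reads) and in control replicate 3 it was 14.5% (6.50 to 26.7, 8 of 55 reads). The interval of every Pkm cKO library lay above that of every control. Myh4 took 21.5%, 26.2% and 0.0533% in Pkm cKO replicates 1, 2 and 3 and 82.5%, 89.9% and 72.7% in the controls. The control reads of this family were therefore mostly Myh4, at 40 to 80 reads a library.

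**Figure D3:**
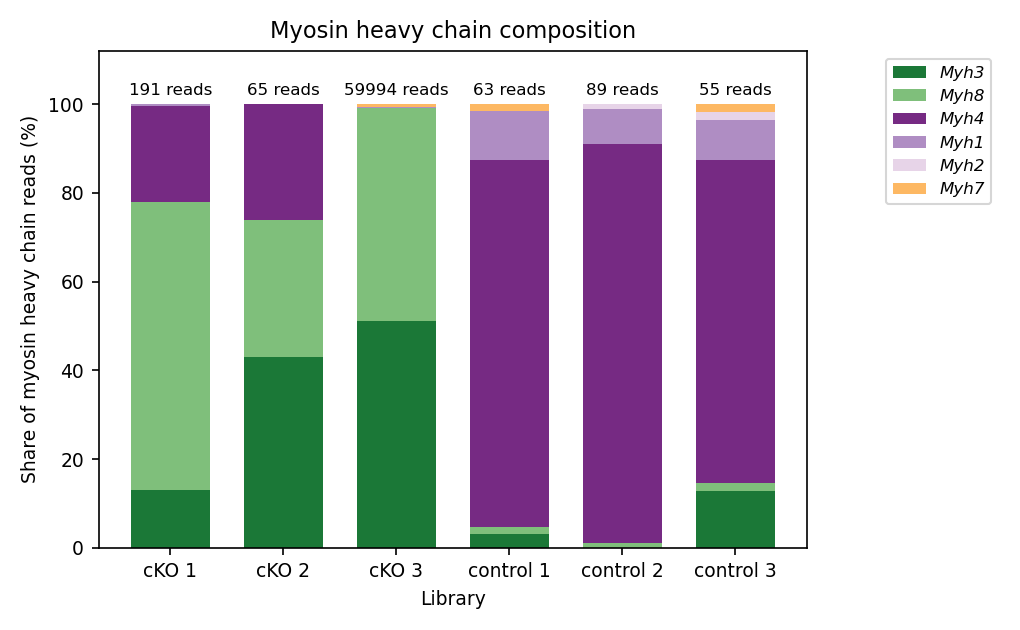
Share of each of the 6 myosin heavy chain genes in their summed reads, in percent, for each library, with the number of reads above each bar. Myh3 and Myh8 fill 99.1% of the bar of cKO 3 and 78.0% and 73.8% of those of cKO 1 and cKO 2, while Myh4 fills 72.7% to 89.9% of the control bars.

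The myosin light chains, which bind the neck of the heavy chain, were ordered alike. Myl1, the fast essential light chain, was at 8.75, 1.39 and 193 CPM in Pkm cKO and 0.354, 0.129 and 0.233 CPM in control. Mylpf, the fast regulatory light chain, was at 13.0, 2.96 and 303 CPM in Pkm cKO and 2.72, 2.59 and 1.89 CPM in control. Myl4, the light chain of embryonic muscle and of the atrium, was at 2.87, 1.39 and 109 CPM in Pkm cKO and 1.47, 0.621 and 1.22 CPM in control. Replicate 1 was above the controls for all 3 genes, replicate 2 for Myl1 and by little for Mylpf, and for Myl4 replicate 2 lay within them. The excess of replicate 2 was 5.89 times (3.60 to 9.81) for Myl1 and 1.24 times (0.975 to 1.56) for Mylpf. The myosin-binding protein Mybpc1, the slow type, had 31, 13 and 4712 reads in Pkm cKO against 4, 0 and 0 in control, Mybpc2, the fast type, had 6, 10 and 55 against 2, 2 and 9, and Mybph had 2, 0 and 691 against 1, 4 and 4.

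Actin genes gave the most reads of the thin filament in each Pkm cKO library, while in each control Neb did. Acta1, the skeletal actin, was at 41.7, 8.36 and 768 CPM in Pkm cKO and 1.03, 0.259 and 0.648 CPM in control, with no overlap. It stood at 65.1 times (51.4 to 83.6) the pooled controls in replicate 1, 13.1 times (10.1 to 17.1) in replicate 2 and 1200 times (954 to 1531) in replicate 3. Actc1, the cardiac actin that foetal skeletal muscle also makes, was at 2.20, 1.25 and 376 CPM in Pkm cKO and 0.0272, 0.155 and 0.104 CPM in control. The ratio for Actc1 was 22.7 (11.9 to 47.7) in replicate 1, 12.9 (6.56 to 27.8) in replicate 2 and 3897 (2177 to 7807) in replicate 3. Per kilobase of coding sequence, Acta1 in Pkm cKO replicate 3 was the highest of the members at 679 CPM per kb, before Mylpf at 598, Myl1 at 342.5 and Actc1 at 332.5 CPM per kb. Myh3 and Myh8 were at 131 and 123 CPM per kb there, and the very long titin gene Ttn at 1.60 CPM per kb.

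For each troponin subunit the fast-fibre gene exceeded the controls by a larger ratio than its slow-fibre counterpart in all 3 Pkm cKO libraries. Tnnt3, the fast tropomyosin-binding subunit, was at 6.84, 1.02 and 156 CPM in Pkm cKO and 0.109, 0.155 and 0.363 CPM in control. Tnni2, the fast inhibitory subunit, was at 5.07, 0.697 and 103 CPM in Pkm cKO and 0.0544, 0.129 and 0.207 CPM in control. Tnnc2, the fast calcium-binding subunit, was at 7.04, 1.48 and 141 CPM in Pkm cKO and 0.218, 0.466 and 0.570 CPM in control. For none of the 3 did the groups overlap, and their ratios were 32.5, 38.5 and 16.7 in replicate 1, 4.83, 5.30 and 3.52 in replicate 2, and 739, 783 and 335 in replicate 3, in that order of genes. The slow counterparts were closer to the controls than the fast genes in replicates 1 and 2. All of them still lay above the highest control in replicate 1, and Tnni1 did in replicate 2. For Tnni1 the intervals were 1.06 to 2.80 in replicate 1 and 1.55 to 3.62 in replicate 2. The ratios were 1.52 and 0.933 for Tnnt1, 1.74 and 2.38 for Tnni1 and 1.44 and 0.912 for Tnnc1, against 21.8, 129 and 49.5 for these genes in replicate 3.

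Tnnt2, the cardiac troponin T that foetal skeletal muscle also makes, was one of the genes for which replicate 2 lay above replicate 1. Its level was 1.58, 3.95 and 54.7 CPM in Pkm cKO and 0.871, 0.647 and 0.752 CPM in control, or 2.10 times (1.45 to 3.01), 5.24 times (3.97 to 6.94) and 72.5 times (58.5 to 91.1) the pooled controls. Neb, which encodes nebulin, the ruler along the thin filament, lay below the controls in both replicates 1 and 2. It was at 1.16, 0.523 and 73.5 CPM in Pkm cKO and 2.97, 2.59 and 3.40 CPM in control. The ratio was 0.390 (0.268 to 0.550) in replicate 1, 0.175 (0.103 to 0.281) in replicate 2 and 24.7 (22.0 to 27.7) in replicate 3.

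The ratio of related isoforms within a library needs no scaling and differed between the Pkm cKO libraries. Myh8 to Myh3 stood at 4.96 (3.21 to 7.96) in replicate 1, 0.714 (0.382 to 1.31) in replicate 2 and 0.943 (0.928 to 0.958) in replicate 3. Acta1 to Actc1 stood at 19.0 (14.9 to 24.6), 6.70 (4.85 to 9.46) and 2.04 (2.00 to 2.08) in that order. Tnnt3 to Tnnt2 was 4.33, 0.257 and 2.84, Tnni2 to Tnni1 was 5.82, 0.585 and 1.60, Tnnc2 to Tnnc1 was 8.07, 2.68 and 4.70, and Myl1 to Myl4 was 3.05, 1.00 and 1.77. In each of the 6 pairs replicate 1 had the highest ratio of the Pkm cKO libraries, with an interval above that of replicate 3. In the controls the troponin and light-chain ratios were all below 1, from 0.125 in control replicate 1 for Tnnt3 and Tnni2 to 0.880 in control replicate 3 for Tnnc2. The muscle reads of replicates 1 and 2 were thus not a constant fraction of those of replicate 3.

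**Figure D4:**
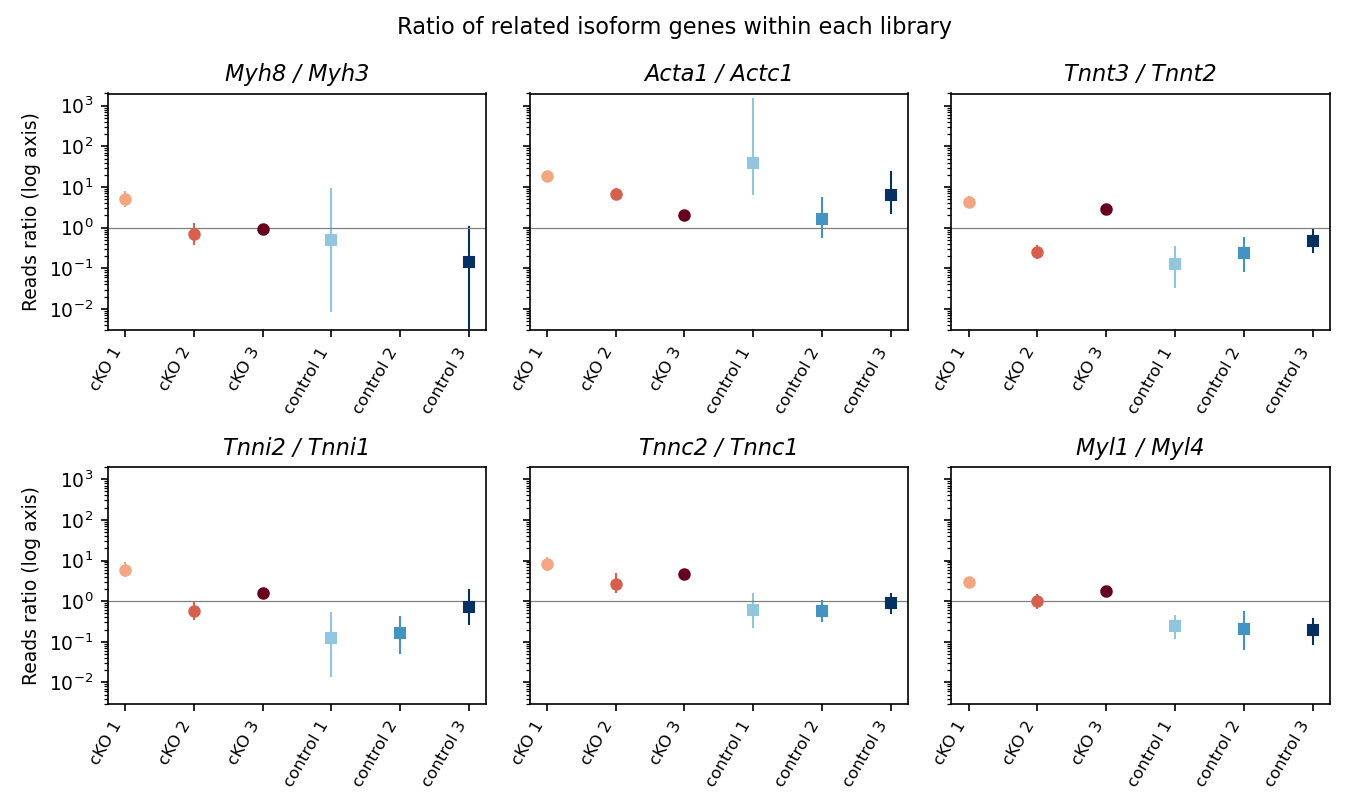
Ratio of reads of 2 related genes within each library, on a log axis, for 6 isoform pairs, with exact 95% intervals for counting error. The point of control 2 is missing for Myh8 to Myh3, where it had 0 Myh3 reads. cKO 1 lies above cKO 3 in all 6 panels, and the control points of the lower panels and of Tnnt3 to Tnnt2 lie below 1.

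The same was seen when the excess over the pooled controls was set against that of replicate 3. Among the 27 members with at least 10 CPM in Pkm cKO replicate 3, the extremes were Actn3 and Cacna1s. Actn3 was at 25.1% in replicate 1 and 22.3% in replicate 2, and Cacna1s at -17.9% in replicate 1 and 43.0% in replicate 2, while Neb was at -2.58% and -3.49%. In replicate 1 the excess was 5.35% of that of replicate 3 for Acta1, 4.84% for Des, 4.79% for Tnni2, 4.71% for Tnnc2 and 4.41% for Myl1. It was 0.558% for Actc1, 0.555% for Myh8, 0.0959% for Myh3 and 0.0784% for Ttn. In replicate 2 it was 5.92% for Tnnt2, 4.52% for Ryr1, 1.01% for Acta1, 0.0967% for Myh3 and 0.0774% for Myh8. Across the 27 members with at least 10 CPM in Pkm cKO replicate 3, Spearman's rho between this share and coding length was -0.53 in replicate 1 and -0.04 in replicate 2. The median share was 2.51% for the 17 genes of at most 2 kb and 0.453% for the 10 longer ones in replicate 1, and 0.549% and 0.385% in replicate 2. The points share 1 library and 1 pool of controls, so this is a description, and what underlies it was not tested.

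Among the genes of the Z disc and the fibre's scaffold, Actn2, the Z-disc alpha-actinin, was at 0.904, 1.13 and 180 CPM in Pkm cKO and 0.435, 0.129 and 0.259 CPM in control. Its fast-fibre relative Actn3 was at 3.07, 2.79 and 10.5 CPM in Pkm cKO and 0.680, 0.440 and 0.622 CPM in control. Actn3 was the member with the most even excess, at 5.30 times (3.83 to 7.36), 4.82 times (3.48 to 6.69) and 18.1 times (14.0 to 23.9) the pooled controls. Ttn, the spring from Z disc to thick filament, had 6, 16 and 6800 reads in Pkm cKO against 3, 2 and 2 in control. Des, which encodes the intermediate filament desmin, was at 8.78, 3.11 and 151 CPM in Pkm cKO and 2.31, 1.35 and 1.04 CPM in control. Ckm, the muscle creatine kinase, was at 6.52, 1.68 and 188 CPM in Pkm cKO and 0.544, 0.362 and 0.493 CPM in control, whereas Mb, the myoglobin gene, had 7, 7 and 30 reads against 2, 7 and 16. Every Pkm cKO library lay above every control for Actn2, Actn3, Ttn, Des and Ckm, while for Mb replicates 1 and 2 lay within the controls.

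Genes of excitation and calcium release varied more widely. Cacna1s, the voltage sensor, gave the most reads of any member in the controls, and its level was 10.97, 16.5 and 21.7 CPM in Pkm cKO and 11.8, 12.2 and 13.8 CPM in control. Ryr1, the calcium release channel, was at 2.84, 4.12 and 51.0 CPM in Pkm cKO and 1.99, 1.91 and 1.82 CPM in control. Atp2a1, the fast calcium pump, was at 1.61, 2.90 and 130 CPM in Pkm cKO and 0.599, 0.543 and 0.830 CPM in control. For all 3 genes replicate 2 exceeded replicate 1, and replicate 1 was below the lowest control for Cacna1s. Chrng, the foetal subunit of the acetylcholine receptor, had 0, 0 and 434 reads in Pkm cKO and 1, 0 and 0 in control, so its excess was seen in replicate 3 alone. Chrna1, the subunit shared by foetal and adult receptors, had 20, 19 and 365 reads in Pkm cKO and 1, 19 and 16 in control, and replicates 1 and 2 were 0.646 and 0.552 CPM beside a highest control of 0.492 CPM.

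The myogenic regulators were close to silent outside Pkm cKO replicate 3. Myog, which drives terminal differentiation, had 13, 6 and 953 reads in Pkm cKO and 0, 0 and 1 in control. Myod1 had 0, 0 and 173 reads in Pkm cKO, Myf6 had 1, 0 and 45, Myf5 had 0, 0 and 14, and Pax7, the satellite cell factor, had 0, 0 and 47. All 4 had 0 reads in every control. With a floor of 3 reads over the pooled controls, replicate 3 was 163.1-fold higher for Myod1 (lower limit 131.2) and 44.31-fold for Pax7 (lower limit 34.64). For Myf6 it was 42.42-fold higher (lower limit 33.1) and for Myf5 13.2-fold (lower limit 9.381). The fold values rest on the floor and are not lower bounds, while the lower limits are those of the exact intervals for counting error. Pax3, which also marks the neural crest, had 5, 1 and 10 reads in Pkm cKO and none in control. Against the same floor it was 6.13-fold higher in replicate 1 (lower limit 3.371) and 9.43-fold in replicate 3 (lower limit 6.339). In Pkm cKO replicate 3, Myog at 35.2 CPM per kb was above Myod1 at 4.50, Myf6 at 1.54, Pax7 at 0.770, Myf5 at 0.454 and Pax3 at 0.171 CPM per kb. Pax7 and Pax3, the progenitor factors, were both below Myog, Myod1 and Myf6 on this scale.

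In the fit over all genes, 25 of the 39 members passed the filter on low counts among 15930 genes tested. The other 14 were the 6 myogenic factors, Myh1, Myh2, Myh7, Ttn and Chrng, which had reads mainly in 1 library, and Mybpc2, Mybph and Mb. By edgeR's quasi-likelihood test 1 of the 25 was called, Actn3, where 0.552% of all tested genes were called, and nothing is read from this since the contrast chose the list. Its log2 fold change was 3.23 (SE 0.58). For the other tested members the standard errors were larger beside the fold changes than for Actn3, as for Acta1 at 8.72 (SE 2.48), Myh8 at 12.98 (SE 4.57) and Myh3 at 11.59 (SE 4.46). Each SE is the size of the fold change over the square root of the test's F statistic. By edgeR 13 of the 25 had an unadjusted p under 0.05. The share of all tested genes at that level is not given here, so nothing is read from this count. The median log2 fold change over the 25 was 5.47, beside 0.01 over all tested genes, and a member could pass through the group in which it is high. Without any 1 of the control replicates 1, 2 and 3, 0 members were called, but 0 of all tested genes were called in those fits either. DESeq2 gave an adjusted p for 11 of the 25 and called 9 of them, all higher in Pkm cKO, where it called 7.34% of the 15231 genes with an adjusted p.

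Pkm cKO replicate 3 set these group values. Without it, 5 members were called (Myh8, Myl1, Actc1, Actn3 and Ckm), where 0.770% of all 16230 genes tested were called. Their log2 fold changes were then 6.28, 4.41, 4.13, 2.34 and 3.14. The median over the 25 members was 1.89, and 23 were above 0. Neb changed sign, its log2 fold change being 3.07 (SE 2.06) over all libraries and -1.81 without replicate 3, in neither case called. Those 5 calls rest on 2 Pkm cKO libraries that themselves differed, Myh8 being at 4.00 CPM in replicate 1 and 0.581 CPM in replicate 2.

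A further 51 skeletal muscle genes, chosen by function and not as members, were also high in replicate 3 for the most part. Above the highest control were 30, 25 and 47 of the 51 in Pkm cKO replicates 1, 2 and 3, beside 28.3%, 32.0% and 34.2% of all genes. Their summed level was not above the controls in replicates 1 and 2, at 228, 177 and 1249 CPM in Pkm cKO and 249, 235 and 220 CPM in control. That sum leans on 1 abundant gene that was lower in Pkm cKO, Stac3. It gave 42.6, 17.8 and 14.1 CPM of the Pkm cKO sums and 96.0, 82.5 and 59.9 CPM of the control sums. Of the 29 of these 51 genes that were tested, 9 lay below the lowest control in replicate 1, 9 in replicate 2 and 1 in replicate 3. The share of all genes below the lowest control is not given here, so nothing is read from these 3 counts. For these 29, edgeR called 0, with 12 at an unadjusted p under 0.05. The share of all genes at that level is not given either, so nothing is read from the 12. DESeq2 called 6 and gave no adjusted p for 12, where it called 7.34% of all genes with an adjusted p. Among the genes it called, Myoz1, Myoz2, Unc45b and Eno3 were higher in Pkm cKO and Stac3 was lower. The myomaker gene Mymk, needed for myoblast fusion, had 1, 1 and 523 reads in Pkm cKO and 0 in every control, and Mymx, its partner, had 0, 1 and 159 and likewise 0.

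Of the 8 most abundant of these genes, Tpm2, a tropomyosin also made outside striated muscle, was at 65.6, 55.9 and 303 CPM in Pkm cKO and 52.4, 49.4 and 59.2 CPM in control. Eno3, the muscle enolase, was at 44.7, 32.7 and 108 CPM in Pkm cKO and 23.6, 30.7 and 27.9 CPM in control. Srl, a calcium-binding protein of the sarcoplasmic reticulum, was at 5.91, 7.81 and 105 CPM in Pkm cKO and 7.05, 7.32 and 6.20 CPM in control. These follow replicate 3, and so did the M-band genes Myom1, at 8.71, 2.56 and 70.4 CPM against 3.86, 3.36 and 3.11 CPM, and Myom2, with 7, 9 and 3087 reads against 1, 2 and 1. Stac3, an adaptor of the calcium channel, did not: it was at 42.6, 17.8 and 14.1 CPM in Pkm cKO and 96.0, 82.5 and 59.9 CPM in control. Cacnb1 at 14.8, 20.7 and 18.7 CPM against 19.7, 18.2 and 16.9 CPM, and Pgam2 at 11.1, 9.38 and 16.2 CPM against 18.6, 14.8 and 15.6 CPM, stayed within 2 times of the controls.

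The 10 regulators of head muscle progenitors summed to 525, 815 and 636 CPM in Pkm cKO and 519, 539 and 592 CPM in control, so replicate 2 was highest. Above the highest control were 5, 6 and 9 of the 10 in replicates 1, 2 and 3, beside 28.3%, 32.0% and 34.2% of all genes. Of 2 with few reads, Isl1 had 1, 1 and 75 reads in Pkm cKO and 0, 1 and 0 in control, and Msc had 27, 14 and 66 reads in Pkm cKO and 9, 8 and 2 in control. For Isl1 replicate 3 stood apart, while for Msc all 3 Pkm cKO libraries lay above the controls.

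Markers of other cell types were read beside the muscle genes. The 9 heart muscle genes summed to 3.07, 7.06 and 8.88 CPM in Pkm cKO and 3.78, 3.88 and 5.13 CPM in control, with the natriuretic peptide genes Nppa and Nppb at no more than 2 reads in any library and the cardiac calcium-pump regulator Pln at 0 in all but Pkm cKO replicate 3, where it had 1. The most abundant of them, the cardiac troponin Tnni3, was at 1.77, 5.55 and 5.16 CPM in Pkm cKO and 2.61, 2.95 and 3.55 CPM in control. Above the highest control were 2, 2 and 8 of the 9 in replicates 1, 2 and 3. In replicate 3 these included Nkx2-5, a cardiac transcription factor, with 1, 0 and 36 reads in Pkm cKO and 0 in every control, Mybpc3, the cardiac myosin-binding protein, with 6, 0 and 28 against 1, 1 and 4, and Myh6, the atrial myosin, with 7, 12 and 34 against 17, 10 and 12. The 3 tendon genes, which mark tissue attached to muscle, summed to 23.2, 11.5 and 36.6 CPM in Pkm cKO and 7.27, 9.99 and 9.15 CPM in control, and all 3 were above the highest control in replicate 3. Tnmd among them was at 16.0, 6.21 and 25.1 CPM in Pkm cKO and 2.99, 4.48 and 4.90 CPM in control. Among the Pkm cKO libraries replicate 3 was first and replicate 1 second for the tendon sum, as for the muscle sum, whereas the controls were not in the same order for both.

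The 5 endothelial genes summed to 267, 222 and 459 CPM in Pkm cKO and 292.5, 230.2 and 260 CPM in control, and all 5 were above the highest control in replicate 3, 1 in replicate 1 and 0 in replicate 2. The 5 macrophage genes were all above the highest control in each of the Pkm cKO libraries, summing to 134.5, 90.9 and 136.5 CPM against 48.5, 49.2 and 45.3 CPM. The 4 fat genes summed to 19.5, 3.51 and 13.7 CPM in Pkm cKO and 2.04, 3.31 and 5.32 CPM in control, nearly all of it Fabp4. Smooth muscle and pericyte genes did not move with the members, at 303, 263 and 369 CPM in Pkm cKO and 444, 341 and 436 CPM in control, with 2, 1 and 2 of the 8 above the highest control. The summed levels of the bone, cartilage, nerve and mesenchyme lists had no library as far from the rest as replicate 3 was for muscle. The 7 nerve and Schwann cell genes summed to 134, 130 and 109 CPM in Pkm cKO and 122, 136 and 135 CPM in control. The 5 cartilage genes summed to 85.6, 114 and 97.6 CPM in Pkm cKO and 116, 104 and 119 CPM in control. Neither sum followed the order of the muscle sum among the Pkm cKO libraries, but single genes of these lists, picked after their values were seen, did. The Schwann cell genes Sox10 and S100b had 27, 10 and 71 and 108, 55 and 260 reads in Pkm cKO, against 0, 4 and 2 and 22, 16 and 33 in control, and the cartilage gene Acan had 76, 28 and 268 against 11, 26 and 14. The red blood cell genes were lower in all 3 Pkm cKO libraries, at 289, 229 and 298 CPM against 556, 473 and 671 CPM. The part of these cell types in the muscle values was not tested.

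**Figure D5:**
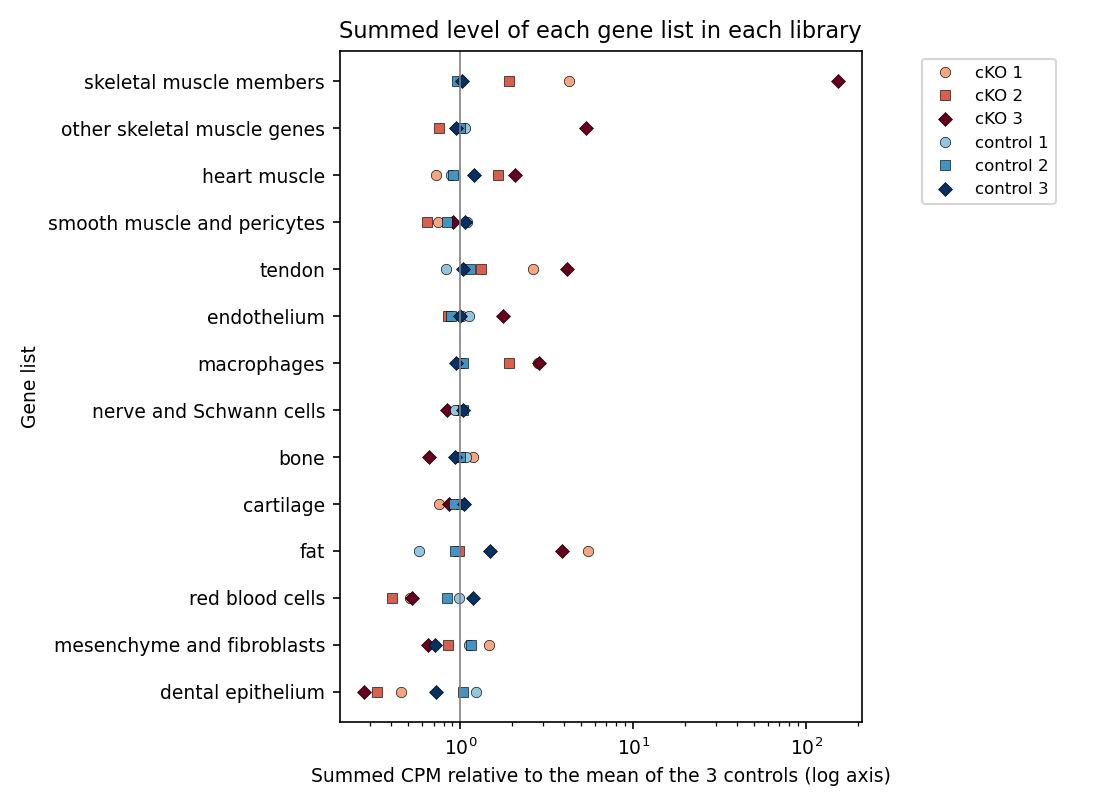
Summed CPM of each gene list in each library, relative to the mean of the 3 controls, on a log axis. The 39 members stand at 152 in cKO 3, 4.24 in cKO 1 and 1.92 in cKO 2, while no other list lies above 5.47 in any library and dental epithelium lies below 0.5 in all 3 cKO libraries.

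Outside all lists, the genes whose profile over the 6 libraries was nearest to the mean profile of the tested members were sought among 12912 genes with a mean of at least 1 CPM. Nearness was the root mean square difference of centred log2 CPM, and the 10 nearest lay between 0.400 and 0.709. They were Tmprss11a, Cstdc5, Gdf10, Cdsn, Calm4, Tbx15, Fam25a, Pappa2, Angptl1 and Clec3b. The members and the other skeletal muscle genes were left out before the ranking, so nothing is read from the lack of sarcomere genes here. Tmprss11a, a membrane serine protease, was at 0.420, 0.378 and 24.4 CPM in Pkm cKO and 0.136, 0.0517 and 0.0519 CPM in control. Calm4, a calmodulin-like gene of the epidermis, was at 1.13, 1.48 and 86.6 CPM in Pkm cKO and 0.490, 0.517 and 0.648 CPM in control. Gdf10, a secreted factor of the BMP family, was at 1.81, 1.25 and 42.0 CPM in Pkm cKO and 0.653, 0.440 and 0.441 CPM in control. Cdsn, which encodes corneodesmosin of the cornified epidermis, was at 0.678, 0.581 and 15.4 CPM in Pkm cKO and 0.0544, 0.155 and 0.130 CPM in control.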

How the data were processed

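The samples were 6 bulk RNA-seq libraries of total RNA, 3 Pkm cKO and 3 control, grouped by their titles. The deposited table holds the authors' whole-number read counts per gene. Reads were trimmed with fastp and aligned with HISAT2 to mm39, per the submitters' processing notes. For the counting program, its strand setting and all versions the sources used here give nothing, so reads of a gene and of an antisense or overlapping gene cannot be told apart.

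The 39 members and all gene lists were chosen with earlier results of these data known. Counts were tested over all genes with edgeR 4.0.16 (R 4.3.3; filterByExpr, TMM, robust quasi-likelihood test, two-sided, Benjamini-Hochberg adjusted p under 0.05), after a check on simulated counts. DESeq2 1.42.0 was an alternative. CPM used TMM-scaled totals. Intervals are exact 95% intervals (conditional for ratios, Clopper-Pearson for shares) and cover counting error only, since reads are not independent molecules. A gene with 0 control reads was given a floor of 3 reads over the pooled controls. Named genes were all members, the 8 other muscle genes with the highest mean CPM and any called, up to 2 genes per other list, and the 10 nearest profiles. Genes named beyond these were chosen after their values were seen. The labels call the samples biological replicates without naming animals, so p-values rest on the spread between samples that may share a source. No pair of libraries agreed within counting noise. GRCm38 sequences served for lengths and letters only. A few results are not reported here.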

Additional observations from a re-analysis of the deposited data

How the results depend on the processing

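Depth limits the low members: with 1 to 3 reads in the controls, ratios have wide intervals, and a gene at 0 reads may be present below the floor of 3 reads. The count of genes called, 88, was 55 with DESeq2 size factors, 518 with no filter on low counts and 1118 by DESeq2, and it ran from 0 to 640 when 1 library was left out. The members called, 1, were 0 with DESeq2 size factors, 9 by DESeq2 and from 0 to 5 when 1 library was left out. The other muscle genes called, 0, were 1 with no filter, 6 by DESeq2 and from 0 to 1 when 1 library was left out. For members relative to the control mean, Pkm cKO replicate 1 (4.24) was at 4.29 with DESeq2 size factors, 4.42 with upper-quartile scaling and 4.39 on total counts, at 1.41 as a median over members, and from 4.15 to 4.29 without 1 control. Pkm cKO replicate 2 (1.92) was at 1.99 with upper-quartile scaling, 2.00 on total counts and 1.30 as a median, and from 1.88 to 1.94 without 1 control. Pkm cKO replicate 3 (152) was at 151.9, 153.7 and 160.5 under the same 3 scalings and 30.5 as a median, and from 149.4 to 154.3 without 1 control. The developmental share of Pkm cKO replicate 3 was 99.8% without Myh7. The counts of members above the highest control stayed within 1.5 times under every alternative. Of 275 alternative log2 fold changes of single members, 245 were within 1 SE of the main value and 30 moved, mostly without Pkm cKO replicate 3. The cause of these shifts was not tested.

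The replicate numbers are shared by the groups, but deviations of same-numbered libraries correlated at 0.235, 0.0150 and 0.215 for numbers 1, 2 and 3, so the numbers were not taken to pair the samples. Pkm cKO replicate 2 correlated best with control replicate 3, at 0.0240. With the replicate block, 708 genes, 3 members and 2 other muscle genes were called.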
